A study of Drosophila suzukii with 24 samples.

Results

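The 150 genes described here are those whose pooled level in untreated field flies most exceeded that in untreated lab flies of Drosophila suzukii, out of 13584 gene models. They were taken from the 6049 genes listed at 10 FPKM or more in untreated field flies and at 1 to under 1000 FPKM in untreated lab flies, and were chosen by the ratio of those 2 values, both from the authors' malathion tables. FPKM is the fragment count of a gene scaled by transcript length and by the mapped fragments of the library. RNA of whole wild-type adults, 5 to 7 days old, was sequenced in 24 samples of 10 individuals each, 3 samples in each of 8 groups. The groups were field-collected flies that survived spinosad, malathion or zeta-cypermethrin at a dose lethal to 50%, untreated field-collected flies, lab-reared survivors of the same insecticides, and untreated lab-reared flies. The labels do not give the sex of the flies, the founders of the lab population or the origin of the replicates.

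Drosophila suzukii, the spotted wing drosophila, is a pest of ripening soft fruit. Flies brought in from the field differ from a laboratory colony in ancestry, food, microbes and past exposures, and any of these can set a transcript's level in a whole-body extract. Spinosad acts on nicotinic acetylcholine receptors, malathion inhibits acetylcholinesterase and zeta-cypermethrin acts on voltage-gated sodium channels, so the insecticides share the nervous system as a target but not the protein. The gene IDs carry no names: 0 of them occurred in the reference table of 18239 genes used here, so no function is given for any gene, no marker list could be looked up and the labelled tissue was not checked against markers. In whole flies, fewer cells of a type and less RNA per cell cannot be told apart.

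The authors deposited 1 FPKM value per group, pooled over its 3 samples, so the levels below carry no spread between replicates and the depth of each library is unknown. Error enters only through the authors' test of survivors against untreated flies. The 6 tables were normalised separately. Over the 8103 genes at 1 FPKM or more in all 8 groups, the median log2 ratio of field over lab was 0.23 in untreated flies, −0.0025 in spinosad survivors, 0.10 in malathion survivors and 0.07 in zeta-cypermethrin survivors.

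The differences that chose the genes were moderate. Among the members the ratio of untreated field over untreated lab flies had a median of 2.23 and ran from 2.07 to 8.50, and 10 members reached 3-fold. Of all 6049 genes within the limits, 195 were at least 2-fold higher in untreated field flies, and 421 were at most 0.5 of the lab level. DS10_00009076 (scaffold 59, 194873 to 195322) had the largest ratio, at 14.4 FPKM in untreated field flies and 1.70 FPKM in untreated lab flies. Next came DS10_00010192 (scaffold 138, 27688 to 28474), at 14.98 FPKM in untreated field flies and 2.84 FPKM in untreated lab flies. The last gene inside the list, DS10_00008879 (scaffold 38, 326829 to 335324), stood at 22.5 FPKM in untreated field flies and 10.9 FPKM in untreated lab flies. The first gene outside it, DS10_00010176 (scaffold 87, 154499 to 155997), stood at 36.01 FPKM in untreated field flies and 17.4 FPKM in untreated lab flies. Their ratios were both 2.07, so the edge of the list separates no distinct group of genes.

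Levels of the members spanned a wide range. In untreated field flies they ran from 10.6 to 877 FPKM with a median of 46.9 FPKM, and in untreated lab flies from 1.70 to 341 FPKM with a median of 20.3 FPKM. The strongest was DS10_00008892 (scaffold 48, 13057 to 13431), at 222 FPKM in field spinosad survivors, 445 FPKM in field malathion survivors, 295 FPKM in field zeta-cypermethrin survivors and 877 FPKM in untreated field flies. In the lab groups the same gene stood at 275 FPKM in spinosad survivors, 417 FPKM in malathion survivors, 265 FPKM in zeta-cypermethrin survivors and 319 FPKM in untreated flies. Untreated field flies stood above all 7 other groups for this gene, and those groups overlapped between field and lab. DS10_00002850 (scaffold 2, 7860186 to 7860442), the second strongest, differed from it. It was listed at 551, 649 and 581 FPKM in spinosad, malathion and zeta-cypermethrin survivors of the field and at 713 FPKM in untreated field flies. Its lab values were 465, 377 and 337 FPKM in survivors of spinosad, malathion and zeta-cypermethrin and 341 FPKM in untreated flies, so that every field group lay above every lab group.

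Across the 8 groups, most members were high in untreated field flies and less so in field survivors. Untreated field flies held the highest of the 8 values for 143 of the 150 members, which the choice of members favours. The other highest values were in field survivors, 4 of spinosad, 1 of malathion and 2 of zeta-cypermethrin, and none (0) was in a lab group. Median levels were 24.3 FPKM in field spinosad survivors, 35.1 FPKM in field malathion survivors, 27.8 FPKM in field zeta-cypermethrin survivors and 46.9 FPKM in untreated field flies. In the lab they were 21.3, 24.8 and 20.3 FPKM in spinosad, malathion and zeta-cypermethrin survivors, and 20.3 FPKM in untreated flies. Set gene by gene against untreated lab flies, the median member was 1.19-fold higher in field spinosad survivors, 1.62-fold higher in field malathion survivors and 1.32-fold higher in field zeta-cypermethrin survivors. On this scale lab survivors of spinosad, malathion and zeta-cypermethrin stood at 1.03-fold, 1.24-fold and 0.99-fold. The low untreated lab value that helped choose the members favours rises over it in every group.

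**Figure D1:**
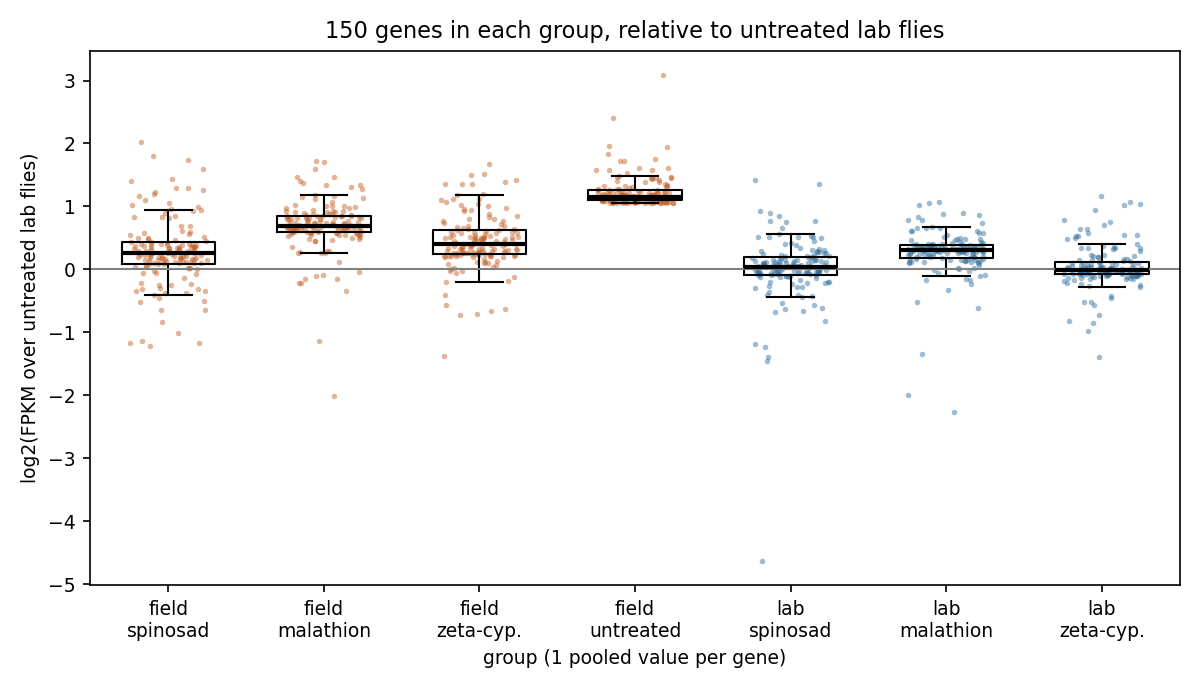
Level of each of the 150 members in 7 groups relative to untreated lab flies (log2 scale, horizontal line at 0); each point is 1 gene, boxes give the median and quartiles, whiskers reach the last point within 1.5 box lengths. The median is 1.16 in untreated field flies, 0.25, 0.69 and 0.40 in spinosad, malathion and zeta-cypermethrin survivors of the field, and 0.04, 0.31 and −0.01 in the lab survivors; genes listed at 0 are left out.

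Survivors were not used to choose the members, so the same ratio of field over lab could be read in other flies. It had the same direction for most members but was much smaller. The rule took the largest ratios of untreated flies, so smaller ratios in other pairs were favoured in advance. Members were higher in field than in lab survivors for 125 of 150 under spinosad, 136 of 150 under malathion and 138 of 150 under zeta-cypermethrin, or 83.3%, 90.7% and 92.0%. The shares were 46.9%, 74.6% and 63.8% of the genes within the limits, and 76.7%, 95.3% and 96.0% of the 150 genes next in rank, above the members for malathion and zeta-cypermethrin. Their median log2 ratios of field over lab were 0.22, 0.39 and 0.36 for spinosad, malathion and zeta-cypermethrin survivors, or 1.17-fold, 1.31-fold and 1.28-fold, against the 2.23-fold of untreated flies. All 6049 genes within the limits had medians of −0.01, 0.13 and 0.09 for the same pairs, and 0.37 in untreated flies. Relative to the genes at 1 FPKM or more in all 8 groups, the members stood 0.23, 0.29 and 0.29 higher on the log2 scale. In untreated flies they stood 0.92 higher. With 1 pooled value per group these ratios have no test.

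Few members stayed at 2-fold in survivors, which the choice by the untreated ratio favours. At least 2-fold higher levels in field than in lab survivors were found for 6 members under spinosad, 9 under malathion and 9 under zeta-cypermethrin. Among all genes at 1 FPKM or more in both groups of a pair, 4.66%, 5.39% and 3.14% passed the same fold, beside 4.0%, 6.0% and 6.0% of the members. That floor was not applied to the members, and DS10_00009076, counted under malathion, lies under it at 0.666 FPKM in lab survivors. Shares past 2-fold were lower among the 6049 genes within the limits, at 1.67%, 0.843% and 0.909%, and among the 150 genes next in rank, at 1.33%, 1.33% and 0.667%. Altogether 18 members passed it in any pair, 12 of them in 1 pair, 6 in 2 pairs and 0 in all 3. Of the genes within the limits 1.67% passed in 1 pair, 0.479% in 2 and 0.265% (16 genes) in all 3. The 150 genes next in rank had 3 genes in 1 pair, 1 in 2 and 0 in all 3. At 1.5-fold, 9 members passed in all 3 pairs, a count for which no share of other genes was computed. The opposite direction, at least 2-fold higher in lab survivors, held for 3, 1 and 1 members under spinosad, malathion and zeta-cypermethrin. It held for 1.87%, 3.48% and 2.21% of all genes at 1 FPKM or more in both groups. Of the 3 under spinosad, 1 is DS10_00011731, which both spinosad tables list at 0 in untreated flies although the malathion tables list the same flies at 22.4 FPKM in the field and 10.1 FPKM in the lab, so its spinosad values are not relied on and 2 members are left.

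**Figure D2:**
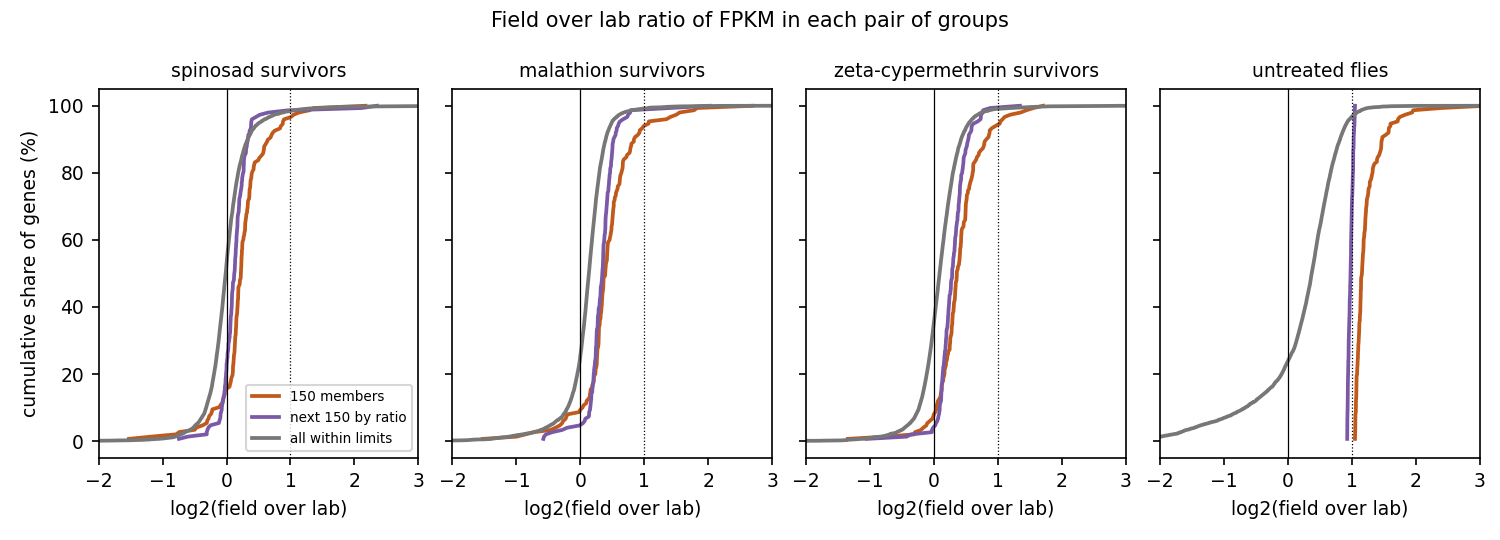
Cumulative share of genes by log2 ratio of field over lab in each pair of groups, for the 150 members, the 150 genes next in rank and all 6049 genes within the limits; the solid vertical line marks equal levels and the dotted line 2-fold, and values outside −2 to 3 are not drawn. In untreated flies the rule places every member right of 1.05; in survivors the members' medians are 0.22, 0.39 and 0.36.

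A larger ratio in untreated flies went with a somewhat larger median ratio in survivors. The 30 members ranked first had a median of 2.78-fold in untreated flies and medians of 0.43, 0.50 and 0.41 (log2) in spinosad, malathion and zeta-cypermethrin survivors. The 30 ranked last had 2.09-fold in untreated flies and 0.14, 0.34 and 0.32 in the same survivors. The 150 genes next in rank, with ratios of 1.90 to 2.07 in untreated flies, had 0.12, 0.34 and 0.28, so the members shaded into their neighbours without a step. The trend held for the medians only. Higher in field than in lab survivors were 24, 25 and 27 of the first 30 and 26, 27 and 27 of the last 30. All these values are descriptions with no test.

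The members at the upper end in survivors were not the same from 1 insecticide to another. DS10_00003629 (scaffold 2, 14487733 to 14488850) had the highest ratio in spinosad survivors, 4.51. Its field levels were 24.3 FPKM in spinosad survivors, 19.0 FPKM in malathion survivors, 14.4 FPKM in zeta-cypermethrin survivors and 21.9 FPKM in untreated flies. The lab levels were 5.39, 6.49 and 9.42 FPKM in survivors of spinosad, malathion and zeta-cypermethrin and 7.32 FPKM in untreated flies. All 4 field groups were above all 4 lab groups. DS10_00012851 (scaffold 663, 34878 to 36144) had the highest ratio in zeta-cypermethrin survivors, 3.26. It was listed at 151, 111 and 153 FPKM in spinosad, malathion and zeta-cypermethrin survivors of the field and at 143 FPKM in untreated field flies, against 73.2, 82.8 and 46.9 FPKM in the lab survivors and 67.2 FPKM in untreated lab flies. Again no field value reached down to a lab value. Its untreated levels depended on the table, with 136 FPKM in field and 99.8 FPKM in lab flies in the spinosad tables. That ratio, 1.36, was the lowest of the members in those tables. DS10_00009245 (scaffold 47, 389169 to 391157) followed DS10_00012851 in zeta-cypermethrin survivors, at 25.2 FPKM in field flies and 8.56 FPKM in lab flies. In malathion survivors DS10_00009076 came first with a ratio of 6.46, from 4.30 FPKM in field flies and 0.666 FPKM in lab flies. That lab value lies under the 1 FPKM used as a limit elsewhere, so the ratio rests on a low level. For this gene zeta-cypermethrin survivors were level, at 3.57 FPKM in field flies and 3.58 FPKM in lab flies.

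Other members changed direction between pairs. DS10_00001438 (scaffold 1, 16367558 to 16388358) stood at 128, 41.0 and 45.7 FPKM in spinosad, malathion and zeta-cypermethrin survivors of the field and at 108 FPKM in untreated field flies. In lab flies it stood at 49.7, 81.9 and 117 FPKM in survivors of spinosad, malathion and zeta-cypermethrin and at 51.9 FPKM in untreated flies. Field was thus the higher population under spinosad and without treatment, and lab the higher under the other 2 insecticides. DS10_00011132 (scaffold 460, 85387 to 85602) was higher in field malathion survivors, at 24.0 FPKM against 6.77 FPKM in lab ones, and lower in field zeta-cypermethrin survivors, at 9.44 FPKM against 16.2 FPKM in lab ones. DS10_00011871 (scaffold 264, 30695 to 38154) had the lowest ratio above 0 under spinosad and the lowest under malathion, 0.347 in both, with 2.35 and 2.15 FPKM in field survivors and 6.77 and 6.20 FPKM in lab survivors. DS10_00011051 (scaffold 404, 47996 to 49148) was the next lowest above 0 under spinosad, at 6.03 FPKM in field survivors and 13.6 FPKM in lab survivors. None of these fold changes against untreated flies was called for DS10_00001438, DS10_00011132 or DS10_00011871 in the authors' deposited tables (0 of 6 comparisons each).

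In the authors' test of field survivors against untreated field flies, the members were called lower or not at all. Because a high untreated field value chose them, falls were favoured and the counts are given as descriptions. In the authors' deposited table for spinosad, 87 of 148 tested members were called lower (q of 0.05 or less), against 10.3% of all tested genes and 16.3% of those within the limits of the rule. The authors' deposited table for malathion called 56 of 150 lower, against 4.22% and 6.81%, and that for zeta-cypermethrin called 91 of 150 lower, against 20.4% and 34.8%. Members called higher numbered 0 in each of the 3 deposited Cuffdiff tables, also at an unadjusted p under 0.05, against 25.9%, 17.8% and 27.8% of all tested genes for spinosad, malathion and zeta-cypermethrin. Of the genes within the limits 9.57%, 6.6% and 12.6% were called higher, and of the 150 genes next in rank 2, 1 and 1. The median log2 fold changes of the members were −0.89, −0.46 and −0.75, against 0.08, 0.01 and 0.14 over all genes with both values above 0 and −0.36, −0.20 and −0.31 over the genes within the limits. Among the 150 genes next in rank 99, 44 and 106 were called lower, so the falls were not particular to the members.

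**Figure D3:**
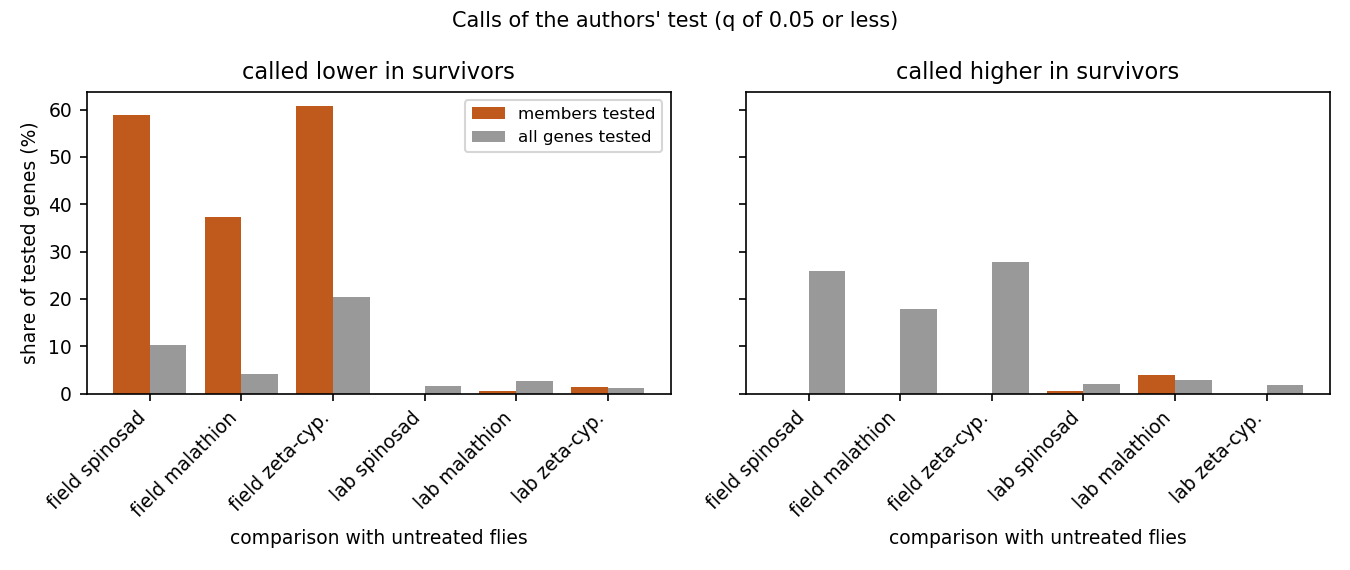
Share of tested genes called lower (left) and higher (right) in survivors at a q of 0.05 or less in the authors' test, for the members and for all tested genes in 6 comparisons with untreated flies. Members called lower make up 58.8%, 37.3% and 60.7% in the field tables of spinosad, malathion and zeta-cypermethrin, and at most 1.33% in the lab tables.

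Of the 2 deepest called falls in each field comparison, only that of DS10_00008890 recurred under another insecticide. DS10_00003842 (scaffold 3, 2113322 to 2113894) was the lowest under malathion. It was listed at 12.8, 4.99 and 12.3 FPKM in spinosad, malathion and zeta-cypermethrin survivors of the field and at 41.8 FPKM in untreated field flies. In lab flies it was listed at 22.1, 4.16 and 11.3 FPKM in those survivors and at 19.99 FPKM in untreated flies. Malathion survivors were the lowest group in both populations. Its log2 fold change under malathion was −3.07 in the field (q = 0.00414) and −2.27 in the lab (q = 0.00495) in the authors' deposited tables. DS10_00008894 followed under malathion in the field, at −1.67 (q = 5.1e-04 in the authors' deposited table). Under spinosad DS10_00008890 (scaffold 48, 11555 to 11965) had the deepest fall, −2.42 (q = 4.49e-04), followed by DS10_00011051 at −2.04 (q = 4.49e-04) in the authors' deposited table. For DS10_00008890 the zeta-cypermethrin fall was −2.66 (q = 2.7e-04) in the authors' deposited table, the deepest called there, and DS10_00008889 came next.

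Against untreated lab flies, lab survivors of spinosad and zeta-cypermethrin differed little in the members, whereas lab malathion survivors stood higher in most. The low untreated lab value that helped choose the members favours rises in all 3 comparisons, which share their untreated libraries, but not necessarily alike. That value is the untreated value of the malathion comparison itself, and the other comparisons use their own tables. The spinosad table listed it over 1.5-fold lower for 7 members, and at 0 for DS10_00008889 and DS10_00011731. The median log2 fold changes were 0.05, 0.31 and 0.03 for spinosad, malathion and zeta-cypermethrin, against 0.01, 0.04 and 0.01 over all genes with both values above 0. Above 0 were 86 of 148, 135 of 150 and 91 of 150 members. The authors' deposited tables called 1, 6 and 0 members higher, against 2.02%, 2.98% and 1.79% of all tested genes, and 0, 1 and 2 members lower, against 1.6%, 2.65% and 1.14%. At an unadjusted p under 0.05, the deposited Cuffdiff tables had 8, 25 and 5 members higher and 2, 3 and 6 lower under spinosad, malathion and zeta-cypermethrin. The highest share was the 4.0% called higher under malathion, which stands beside 2.98% of all tested genes and 0.364% of the genes within the limits of the rule.

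The called rises in lab flies were modest. DS10_00012407 (scaffold 449, 2113 to 2691) had the largest under malathion, at 28.2 FPKM in lab malathion survivors and 13.6 FPKM in untreated lab flies (log2 fold change 1.05, q = 0.0461 in the authors' deposited table). DS10_00004732 (scaffold 4, 1114963 to 1117407) stood at 118 FPKM in lab malathion survivors and 65.0 FPKM in untreated lab flies (0.86, q = 0.00191 in the authors' deposited table). Field malathion survivors had the same level of DS10_00004732, 118 FPKM, against 213 FPKM in untreated field flies. This gene was called lower in the field and higher in the lab under malathion, and the survivors of both populations ended at a ratio of 0.998. Under spinosad the 1 called rise was that of DS10_00013573 (scaffold 12986, 1 to 290), at 103 FPKM in lab spinosad survivors and 37.8 FPKM in untreated lab flies (1.44, q = 0.00246 in the authors' deposited table). Its field levels were 117, 128 and 88.4 FPKM in survivors of spinosad, malathion and zeta-cypermethrin and 148 FPKM in untreated flies. Under zeta-cypermethrin the called falls were those of DS10_00008890 (−1.35, q = 0.00578) and DS10_00008894 (−0.94, q = 0.00323) in the authors' deposited table, both on scaffold 48.

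Malathion survivors stood above the other survivors in both populations, a comparison that uses neither of the values behind the rule. The median log2 ratio of malathion over spinosad survivors was 0.47 in field flies and 0.25 in lab flies over the members, with 129 of 148 and 120 of 149 of them above 0. Over the genes at 1 FPKM or more in all 8 groups the medians were 0.13 in the field and 0.03 in the lab. Over the genes within the limits they were 0.20 and 0.05. Malathion over zeta-cypermethrin survivors gave 0.31 in field flies and 0.29 in lab flies, with 123 and 130 of 150 members above 0. Genes at 1 FPKM or more in all 8 groups gave 0.08 and 0.06, and genes within the limits 0.15 and 0.11. Zeta-cypermethrin over spinosad survivors gave 0.14 in the field and −0.02 in the lab. The 150 genes next in rank had 0.49 and 0.27 for malathion over spinosad and 0.33 and 0.30 for malathion over zeta-cypermethrin, so the pattern reaches beyond the members. It was not tested, as each group has 1 pooled value and the tables were normalised separately. For the same untreated flies, the spinosad tables listed 9 members in the field and 7 in the lab over 1.5-fold lower than the malathion tables. Those members were kept in the ratios of malathion over spinosad.

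Position along the authors' scaffolds was not used by the rule. The members lay on 77 scaffolds, 29 of them (19.3%) on scaffold 1, against 15.5% of the genes within the limits and 16.0% of the 150 next in rank. Within 10 kb of another member lay 25 members, or 16.7%, against 21 (14.0%) of the 150 genes next in rank. Of all 6049 genes within the limits 85.1% had such a neighbour, a figure that rests on a far denser set. The 25 members formed 8 pairs, 1 run of 4 and 1 run of 5. Member loci were short, with a median span of 1354 bases (quartiles 767 and 2837), against 1935 bases for the 150 next in rank and 2775 bases for all genes within the limits. Under 1000 bases were 34.0% of the members and 16.4% of the genes within the limits. The 51 members under 1000 bases had median log2 ratios of field over lab of 0.27, 0.50 and 0.43 in spinosad, malathion and zeta-cypermethrin survivors, and the 99 longer ones 0.21, 0.36 and 0.34. FPKM divides by length, and the part of length in these ratios was not tested.

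The run of 5 lies on scaffold 48, from 4639 to 15276, and its genes went together in the 8 groups. They are DS10_00008889, DS10_00008890, DS10_00008891, DS10_00008892 and DS10_00008894. DS10_00008893, the sixth gene model of the interval, was not a member, at a ratio of 1.94, with 175 FPKM in untreated field flies and 90.0 FPKM in untreated lab flies. DS10_00008890 was listed at 27.1, 56.3 and 23.1 FPKM in spinosad, malathion and zeta-cypermethrin survivors of the field and at 150 FPKM in untreated field flies, against 45.2, 65.5 and 22.9 FPKM in the lab survivors and 59.9 FPKM in untreated lab flies. In the same order of insecticides, DS10_00008891 was listed at 28.3, 41.0 and 27.9 FPKM in field survivors and 121 FPKM in untreated field flies, against 33.2, 56.5 and 26.7 FPKM in lab survivors and 44.1 FPKM in untreated lab flies. DS10_00008894 was listed at 96.4, 192 and 151 FPKM in field survivors and 611 FPKM in untreated field flies, against 98.1, 240 and 114 FPKM in lab survivors and 224 FPKM in untreated lab flies. Field and lab survivors thus overlapped in these genes. Untreated field flies stood above every other group, but their high level helped choose the members. They were not the only group to differ, as DS10_00008890 and DS10_00008894 were called lower in lab zeta-cypermethrin survivors than in untreated lab flies. In both populations malathion survivors were the highest survivors. DS10_00008889 was listed at 17.2 FPKM in field malathion survivors, 9.57 FPKM in field zeta-cypermethrin survivors and 44.1 FPKM in untreated field flies, and at 21.0, 8.79 and 15.9 FPKM in the matching lab groups. Both spinosad tables list it at 0 in survivors and in untreated flies, although the malathion tables do not for the same untreated flies, so its spinosad values are not used. The levels of DS10_00008894 in untreated flies also depended on the table, with 352 FPKM in field and 134 FPKM in lab flies in the spinosad tables. Neighbouring models can share reads from near-identical copies, and whether these do was not tested.

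The run of 4 lies on scaffold 36, from 449356 to 454535, and holds every gene model of that interval. It kept a higher level in field flies in all pairs. DS10_00008706 was listed at 16.0, 11.95 and 19.97 FPKM in spinosad, malathion and zeta-cypermethrin survivors of the field and at 24.9 FPKM in untreated field flies, against 8.68, 7.77 and 8.75 FPKM in lab survivors and 6.99 FPKM in untreated lab flies. DS10_00008707 was listed at 15.8, 15.4 and 15.7 FPKM in field survivors and 17.7 FPKM in untreated field flies, against 10.5, 8.88 and 8.71 FPKM in lab survivors and 5.83 FPKM in untreated lab flies. DS10_00008708 was listed at 12.1, 10.5 and 15.5 FPKM in field survivors and 14.3 FPKM in untreated field flies, against 4.93, 5.28 and 7.57 FPKM in lab survivors and 5.95 FPKM in untreated lab flies. For each of these 3 genes the lowest field value was above the highest lab value, and they are 3 of the 9 members at 1.5-fold or more in all 3 survivor pairs. DS10_00008705 was closer, at 7.40, 7.56 and 8.68 FPKM in field survivors and 14.0 FPKM in untreated field flies, against 6.05, 6.78 and 6.54 FPKM in lab survivors and 6.19 FPKM in untreated lab flies. It was called lower in all 3 field comparisons of the authors' deposited tables (q = 0.0338, 0.0159 and 0.0262 for spinosad, malathion and zeta-cypermethrin). The other 3 genes of this run were called in none (0) of the 6 comparisons. Both runs were singled out by position, and their patterns were seen before they were described.

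**Figure D4:**
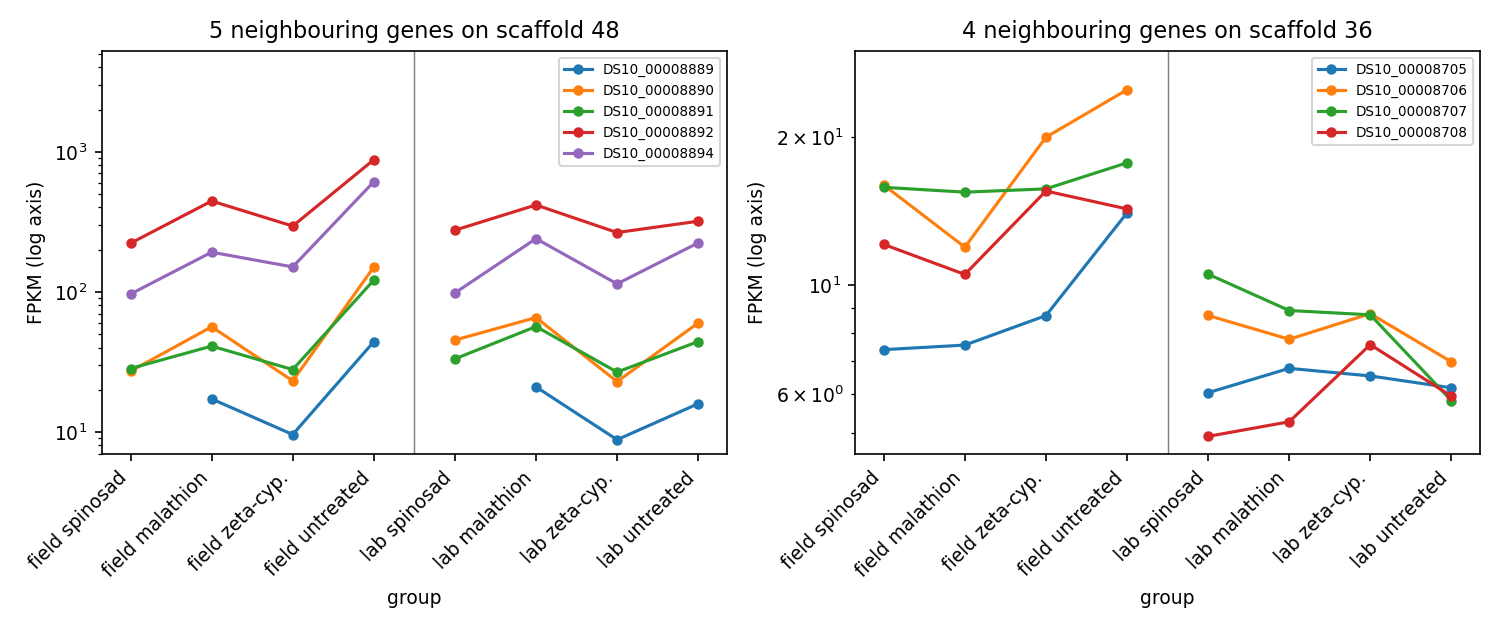
FPKM (log axis) of the genes in both runs of neighbouring members across the 8 groups, field groups left of the vertical line in each panel; each point is 1 pooled value and lines join the groups of a population. On scaffold 48 untreated field flies stand above every other group, and their high level helped choose the members. DS10_00008892 is at 877 FPKM there and at 222 to 445 FPKM in the other groups. On scaffold 36 the field values of DS10_00008707 (15.4 to 17.7 FPKM) all exceed its lab values (5.83 to 10.5 FPKM). DS10_00008889 is listed at 0 in spinosad survivors and not drawn there.

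The untreated levels themselves depended little on the table for most members. In the zeta-cypermethrin tables the untreated ratio of field over lab was 2.06 to 8.46 over the members, and in the spinosad tables it was 1.36 to 6.86, with 141 of the 148 members above 0 at 2-fold or more. These are the same libraries, so this measures the authors' processing and not the flies. By over 1.5-fold, or by a listing at 0, 11 members differed between the spinosad and malathion tables in at least 1 population. Without them, the median log2 ratios of field over lab survivors over the 139 members left were 0.22, 0.39 and 0.36 for spinosad, malathion and zeta-cypermethrin.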

How the data were processed

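RNA of whole flies was sequenced in 24 samples with a stranded paired-end messenger RNA kit, per the labels' protocols. The submitters' processing notes list FastQC, TopHat2 2.0.13, Cufflinks 2.2.1 and Cuffdiff. Genome build and annotation were not given in the sources used here. The authors deposited 6 gene tables with FPKM, 1 pooled value per group, and, per the file headers, a log2 fold change of survivors over untreated flies, a test statistic (a score), a p-value and a q-value. The malathion and zeta-cypermethrin tables name their columns q1 and q2; q1 was taken as untreated, following the tables' names. The count of per-sample columns left unmapped is 0. Locus starts are counted from 0 in the deposited tables and printed counted from 1; positions hold only on the authors' scaffolds.

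Levels of untreated flies come from the malathion tables unless stated; a fold change uses its own table. Medians of ratios and fold changes leave out genes listed at 0, and median levels in FPKM keep them. Ratios, medians and counts were computed with Python 3.11.15 and pandas 2.3.3 and were tested on simulated data with planted answers. No new significance test was run, since no replicate values are at hand; p-values measure the spread between these samples, which may be technical. The list, its limits and the comparisons were chosen with earlier results of these data known. Named genes are the ends of the list, the 2 strongest members, up to 2 called rises and falls per comparison, the 2 highest and 2 lowest field over lab ratios per survivor pair, and the longest run of neighbours; the run of 4 on scaffold 36, the comparison of insecticides and the 150 genes next in rank were chosen after the values were seen. The alternatives changed the q threshold, the fold, the table and limits behind the list, its size, a pseudocount of 1 FPKM, the scaling and the gap between neighbours. DNA or protein sequences were not used here.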

Additional observations from a re-analysis of the deposited data

How the results depend on the processing

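Over 11 alternative settings, 150 values of 26 results were recomputed; 131 stayed within 1.5 times of the reported value and 19 moved further, while 0 changed sign. Counts were compared as ratios, and log2 medians as folds, so that 1.5 times is a shift of 0.58. No median moved that far. Most of the medians were nearer to 0 than that shift, so a median that fell to 0 could still count as staying. Counts cannot change sign, so only the medians could have shown a reversal. As ratios of log2 values the smallest medians moved more: with 75 members that of lab spinosad survivors was 0.09 in place of 0.05, and that of lab zeta-cypermethrin survivors 0.05 in place of 0.03. With a q of 0.01 or less, 20 members were called lower in field malathion survivors and 1 higher in lab malathion survivors. With a fold of 2 added to the q of 0.05, members called lower numbered 38, 7 and 17 in spinosad, malathion and zeta-cypermethrin survivors of the field, 1 in lab zeta-cypermethrin survivors, and 1 was higher in lab malathion survivors. With members chosen from the zeta-cypermethrin tables (149 of 150 shared) or the spinosad tables (132 of 150 shared), 2 members were called higher in lab spinosad survivors, and with the spinosad choice 0 were lower in lab malathion survivors. With 75 members, 41, 26 and 43 were called lower in spinosad, malathion and zeta-cypermethrin survivors of the field, 0 were lower in lab malathion survivors and 13 had a neighbour within 10 kb, as a shorter list must have fewer. At a fold of 1.5, 20, 37 and 33 members were higher in spinosad, malathion and zeta-cypermethrin survivors of the field, and 9 in all 3 pairs. No paired analysis was possible because the tables hold 1 pooled value per group, and for the same reason no replicate could be left out. Depth is unknown, so no counting limit was computed.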
